A study of Drosophila melanogaster with 17 samples.

Results

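Mushroom body neurons of Drosophila melanogaster were compared between pupae at 5 h after puparium formation and larvae of the third instar at -18 h, before the pulse of the moulting hormone ecdysone that starts metamorphosis. The members are the 10 arrays that the labels place at these times, 3 of pupae and 7 of larvae, out of 17 arrays in the series, and all 13966 probe sets that are not array controls were tested. Every animal carried the genotype yw;UAS-mCD8::GFP/+;;OK107-GAL4, so the neurons made a membrane-bound GFP under OK107-GAL4, a driver line active in mushroom body neurons, and no group lacks the transgenes. Each array holds amplified RNA of 1 pool of 40 laser captures of about 100 cell bodies each, cut from frozen sections 15 micrometres thick. The labels date the larvae by hours and describe them both as early in the third instar and as wandering with dark blue guts after dye feeding, so they are called here by their time, -18 h. The 7 arrays of white prepupae at 0 h were not part of the comparison and appear only in a paragraph near the end and in 1 plot.

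The mushroom body is a paired centre of the insect brain known for olfactory learning, and its intrinsic neurons, the Kenyon cells, are of several classes born one after another. The gamma neurons prune their larval axon branches and dendrites in the early pupa and later grow adult branches, whereas the other larval-born class keeps its axons, and OK107-GAL4 labels both. Pruning needs the ecdysone receptor EcR and its partner usp in the neuron itself, TGF-beta signalling that raises EcR, the ubiquitin-proteasome system, and glia that engulf the fragments through the receptor Draper. Neurons that prune and neurons that do not were therefore captured together, and in such pooled samples fewer cells of a type and less RNA per cell cannot be told apart.

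The median log2 value of an array lay between 4.32 and 4.43 in larvae and between 4.32 and 4.34 at 5 h. Over all probe sets, Pearson's r between arrays was 0.960 to 0.988 among larvae, 0.988 to 0.993 among the 5 h arrays and 0.940 to 0.962 between the groups. The labelled cell type was checked by its markers. The mushroom body transcription factors ey and toy had larval medians of 9.15 and 8.12 and the adenylyl cyclase rut one of 10.38. Among the 20 mushroom body markers measured, prt (8.73) and br (8.59) were bright too, while dac (4.53) and chinmo (4.11) were dim. Of these 20, 4 were near background in both groups, so the check rests on part of the list. The pan-neuronal genes elav (4.54) and nSyb (4.80) were also dim in these arrays. Some genes of other cell types were as bright as the brighter mushroom body markers. Larval medians were 8.28 for wrapper and 8.15 for drpr, both of glia, and 12.08 for the fat body gene Obp99a. Of 20 glial genes, 5 were near background in both groups. The share of mushroom body neurons in the pools was not tested. Larval arrays 1, 4 and 6 carried transcripts of salivary gland glue and arrays 6 and 7 of muscle. The count of all differing probe sets and the proteasome counts are also given without these 4. The 3 arrays of 5 h all had a low hybridisation spike-in signal (BioDn 5′ probe set 7.69 to 7.98, against 8.82 to 10.3 in larvae), so on that measure hybridisation and group cannot be told apart, and larval arrays 4, 5 and 6 lay nearest to them. The log2 difference between 3′ and middle probe sets moved in both directions. It was lower at 5 h for eIF4a (3.03 ± 0.0845 in larvae and 2.58 ± 0.0121 at 5 h, SD, n = 7 and n = 3) and for actin (3.37 ± 0.330 and 2.76 ± 0.107), and higher for gapdh (1.77 ± 0.149 and 2.46 ± 0.0859). The 18S control probe set read 8.98 to 9.31 in larvae and 7.57 to 7.70 at 5 h. None of these measures overlapped between the groups. A mean over spike-in probe sets did overlap, at 9.34 to 10.5 in larvae and 9.18 to 9.48 at 5 h. The part of these measures in the differences below was not tested.

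Of the 13966 probe sets, 2532 (18.1%) differed between 5 h and -18 h at a Benjamini-Hochberg adjusted p under 0.05 in limma, 1470 of them (10.5%) higher at 5 h and 1062 (7.60%) lower. These shares, and the counts per gene further on, are the background for the counts below. The share was larger among brighter probe sets. With dim ones dropped, 2078 of 5071 (41.0%) differed, 1244 higher and 834 lower. Counts in lists of bright genes are to be read beside that larger share. A difference of at least 2-fold was reached by 316 of the higher and 187 of the lower ones. The groups did not overlap in 2843 probe sets (20.4%), of which 2226 were among those that differed. The fitted change had a median SE of 0.114 log2 and a median of -0.066 over all probe sets. Per gene, each represented by its brightest probe set, 1274 of 10826 rose and 826 fell, with a median change of -0.06. Of 330 genes with several probe sets and at least 1 call, 299 also had a probe set that was not called and 5 had calls in both directions, so a gene below is 1 probe set unless others are given. The labels call the replicates biological but do not give the animals per pool, and p-values measure the spread between these pools.

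The largest changes were picked only among genes that differed and whose larval and 5 h values did not overlap. Their lack of overlap was thus a condition of the choice and adds no evidence. Among genes with proper symbols, each taken at its brightest probe set, the largest rise was that of Ctl2, a choline transporter-like protein. Its log2 level was 4.25 to 4.71 (median 4.46) in the 7 larval arrays and 8.75, 8.62 and 8.60 in the 5 h arrays. All 5 h arrays lay far above all larval ones, and the change was 4.19 ± 0.10 log2 (SE), 18.3-fold, with limma's adjusted p = 2.21e-11. Jhbp2, a juvenile hormone binding protein family member, was near background in larvae (3.47 to 3.90, median 3.70) and reached 8.05, 7.60 and 7.90 at 5 h. The groups again stood apart by 4.15 ± 0.11 log2 (adjusted p = 5.61e-11). Also large was the rise of nrv1, a beta subunit of the sodium pump, from 4.16 to 5.27 (median 4.50) in larvae to 8.08, 8.06 and 7.80 at 5 h. That is 9.85-fold without overlap (3.30 ± 0.21 log2, adjusted p = 1.38e-07). The secreted chemokine-like protein orion, which acts from pruning gamma neurons on the engulfing glia, lay at 6.52 to 7.16 (median 6.84) in larvae and at 9.36, 8.95 and 9.19 at 5 h. It thus stood 5.06-fold higher in all 3 pupal arrays (2.34 ± 0.14 log2, adjusted p = 7.20e-08).

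Other large rises were those of the small heat shock protein Hsp26 (8.60-fold), the AAA ATPase pch2 (8.02-fold), Dtg (7.42-fold), a gene first found as a target of Dpp signalling, and Ace, the acetylcholinesterase that ends transmission at cholinergic synapses (6.41-fold). MESR6 rose 5.87-fold, aru, a relative of the actin regulator Eps8, 5.11-fold and Ypel, of the Yippee-like family, 4.95-fold. Anillin, encoded by scra and known from the cytokinetic ring, went from a larval range of 5.29 to 5.95 to 8.37, 7.82 and 7.62 at 5 h. In that gene too the groups stood apart, at 4.70-fold (2.23 ± 0.17 log2, adjusted p = 8.82e-07). For 3 further genes the rise was seen in only part of the probe sets. Svil, of the villin family of actin-binding proteins, rose by 3.74 ± 0.13 log2 in 1 probe set (5.91 to 6.35 in larvae, 10.08, 9.85 and 9.47 at 5 h) while its other 8 changed by -0.36 to 0.50. The median level of its probe sets changed by -0.26 and was not called. ImpE1, an ecdysone-inducible gene of imaginal discs, rose by 2.33 in 1 probe set and changed by 0.14 in the other. GILT2, of the lysosomal thiol reductase family, rose by 2.26 from near background in 1 and changed by 0.27 in the other. Of genes known by an annotation number, CG12880 rose 31.9-fold, from 3.70 to 4.48 in larvae to 9.25, 9.26 and 9.09. CG30053 rose 15.8-fold and CG11899 14.2-fold, and none of the 3 overlapped between groups.

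On the same basis the largest fall was that of prt (portabella), a vesicular transporter-like protein known from mushroom body neurons. It measured 8.03 to 8.88 (median 8.73) in larvae and 4.33, 4.20 and 4.16 at 5 h. All pupal arrays were far below all larval ones, by 4.31 log2 or 19.9-fold (SE 0.18, adjusted p = 1.80e-09). The transporter of the major facilitator family MFS3 fell 15.6-fold, from 8.33 to 8.70 in larvae to 4.41, 4.91 and 4.31. Rdl, the GABA-gated chloride channel, lay at 9.41 to 10.42 (median 10.02) in larvae and at 7.09, 6.66 and 6.51 at 5 h. The gap, without overlap, was 9.47-fold (-3.24 ± 0.19 log2, adjusted p = 6.12e-08). Rab27, a small GTPase of vesicle exocytosis, fell 7.35-fold, and Ric, a Ras-like protein that binds calmodulin, 6.73-fold. Ac76E, an adenylyl cyclase, fell from 5.38 to 6.59 to values near background (3.14, 3.24 and 3.40). rdo also ended near background at 5 h, 5.25-fold lower. MtnA, a metallothionein, went from 11.26 to 11.66 down to 8.94, 8.66 and 9.12, a fall by 2.59 log2 (SE 0.11, adjusted p = 2.64e-09).

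In 4 of the largest falls the other probe sets of the gene changed far less. Sol1 fell by 4.25 ± 0.17 log2 in its brightest probe set, and its 2 other probe sets changed by -0.13 and -0.48. CAP, a scaffold protein of cell adhesion sites, fell by 2.70 in 1 probe set and changed by 0.07, -0.01 and 0.04 in the others. futsch, the MAP1B-like microtubule protein of axons and synapses, fell by 2.50 in 1 (larvae 7.52 to 8.29, pupae 5.59, 5.58 and 5.28) and changed by -0.16 and -0.11 in the others, so that the gene's median was no longer called (adjusted p = 0.487). sals, a regulator of actin filament ends in muscle sarcomeres, rested on 2 of the 3 pupal arrays in 1 probe set and changed by -0.17 in the other. Its larval range was 9.42 to 9.91, and the pupal arrays read 6.50, 6.01 and 9.03. Without the 5 h array 3 the fall was 3.43 log2 in size (-3.43, adjusted p = 2.58e-08) against -2.51 ± 0.45 with it, and the call was lost against larval arrays 4, 5 and 6 alone (adjusted p = 0.0579) and against 1 and 4 alone (0.0741). Among bare annotation numbers, CG34166 spread over 8.15 to 11.60 in larvae and stood at 5.61, 6.82 and 6.88 in pupae (-3.48 ± 0.63 log2), and against larval arrays 1 and 4 alone the difference was -1.82. CG15353 fell 8.07-fold (by 1.48 log2 in its other probe set) and CG33090 5.86-fold.

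**Figure D1:**
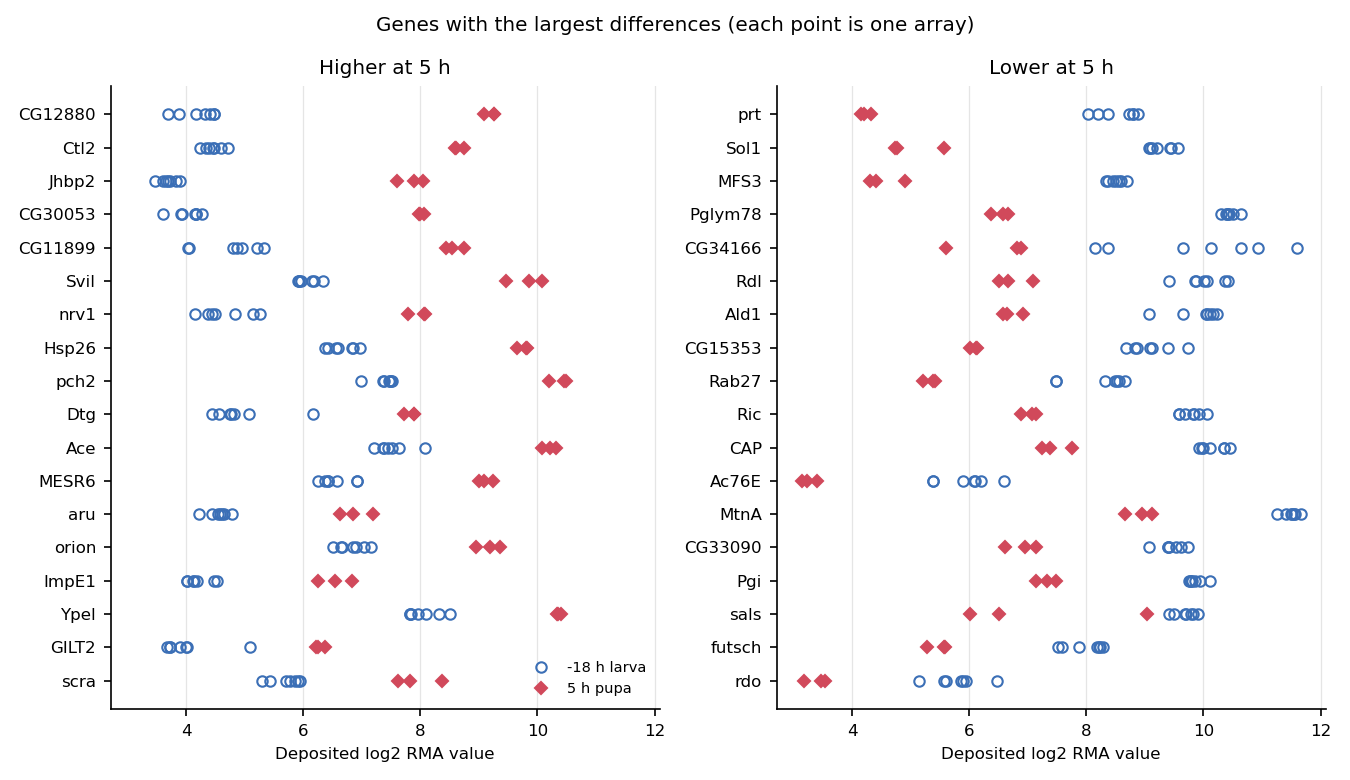
Deposited log2 RMA values (x axis) of the genes with the largest differences, higher at 5 h on the left and lower on the right. Open circles are the 7 larval arrays and filled diamonds the 3 arrays of 5 h pupae. The genes were picked for no overlap, so the diamonds lie beyond all circles in every row. For sals 1 diamond, at 9.03, sits next to its larval values.

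Ecdysone acts through a receptor of EcR and usp that switches on early genes, which in turn control later ones. Of 27 measured genes of this response, 7 rose and 3 fell, with a median change of 0.05. EcR itself fell in its brightest probe set. It lay at 4.81 to 6.4 (median 5.90) in larvae and at 4.47, 4.15 and 4.02 at 5 h. The groups did not overlap, at -1.57 ± 0.27 log2 (adjusted p = 0.000951), and the second EcR probe set differed by -0.19 (adjusted p = 0.20). usp showed -0.38 ± 0.14 log2 with overlapping groups (adjusted p = 0.0895). br, a zinc finger family of early genes, measured 8.03 to 9.22 (median 8.59) in larvae and 6.48, 6.43 and 6.47 in pupae. That probe set fell 4.19-fold (-2.07 ± 0.21 log2, adjusted p = 1.02e-05), the other 3 differed by -0.12, -0.10 and -0.50, and the median over the 4 was not called (adjusted p = 0.0833).

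Hr78, a nuclear receptor, rose 2.57-fold without overlap, from 6.67 to 7.14 in larvae to 8.41, 8.26 and 8.02 at 5 h. vri, a bZIP factor, rose 1.91-fold (8.67 to 9.80 against 10.38, 10.19 and 10.45), and the orphan receptor Hr51, which gamma neurons need to regrow, rose by 0.58 log2. The late and mid-prepupal factors were dim in both groups. ftz-f1 lay at 2.59 to 3.33 in larvae and 2.77 to 3.23 in pupae, and Hr3, Hr39 and Eip93F were near background too, with changes of -0.10, -0.19 and -0.07. Hr4 changed by 0.19 (adjusted p = 0.418). The 5 h array 3 stood apart within this list, with a list mean of 5.39 against 4.97 and 4.88 in the other pupal arrays. ImpL1 read 7.09 there and 3.22 and 2.82 in the other 2, ImpE2 read 8.08 against 3.50 and 3.41, and Cyp18a1 read 6.46 against 3.08 and 2.97; none of the 3 was called. Without that array 5 of the 27 rose and 2 fell.

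Genes known to act in pruning or axon degeneration numbered 61, of which 16 rose and 5 fell (median 0.05). Sox14, the transcription factor that ecdysone induces for pruning, did not pass the test. It spanned 6.29 to 7.20 (median 6.87) in larvae and was 6.62, 6.27 and 6.28 in pupae (-0.39 ± 0.18 log2, adjusted p = 0.161). Mical, the actin-severing enzyme downstream of Sox14 in dendrite pruning, read 4.0 to 4.39 and 4.12, 4.07 and 4.08 (-0.14 ± 0.09 log2). Kat60 and kat-60L1, katanin microtubule-severing proteins, changed by 0.02 and -0.22, and babo, the TGF-beta receptor upstream of EcR, was near background in both groups (0.12). In contrast the initiator caspase Dronc rose 4.55-fold. It lay at 4.90 to 5.54 in larvae and at 7.52, 7.42 and 7.55 in pupae, without overlap (2.19 ± 0.13 log2, adjusted p = 5.95e-08). IKKepsilon, a kinase that limits the caspase inhibitor Diap1 in fly neurons, rose 2.94-fold, from 5.24 to 5.91 to 7.04, 7.22 and 6.94.

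Of the subunits of the ubiquitin ligase complex SCF, which gamma neuron pruning needs, Cul1, SkpA and Roc1a rose by 0.94, 0.95 and 0.96 log2. The F-box subunit slmb, near background in both groups, changed by -0.03 (adjusted p = 0.870). The adhesion protein Nrg, whose removal by endocytosis belongs to dendrite pruning, rose 1.94-fold (4.41 to 4.78 against 5.66, 5.37 and 5.62). drpr, encoding the engulfment receptor Draper of glia, rose 1.53-fold, from 7.85 to 8.57 to 8.74, 8.83 and 8.79 (0.61 ± 0.14 log2, adjusted p = 0.00746). This small difference lost its call against larval arrays 4, 5 and 6 alone (0.38, adjusted p = 0.0594), and its other probe set differed by -0.28. bol, an RNA-binding protein that limits pruning, fell by 0.53 ± 0.12 log2 (adjusted p = 0.00589), a call lost in the same subset (adjusted p = 0.0533). The other bol probe set differed by -0.20 and was not called. Without the 5 h array 1 or 3, the falls in this list numbered 3 in place of 5. Over 22 alternatives the rises numbered 8 to 20 and the falls 3 to 10.

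Among 17 regulators of cell death, 3 rose and 1 fell. Besides Dronc, its activating partner Dark rose 1.78-fold (5.66 to 6.32 against 6.85, 6.69 and 6.73). The inhibitor of apoptosis Diap2 fell 2.09-fold, from 6.66 to 7.61 to 6.03, 5.93 and 5.82. Buffy, a Bcl-2 family member, rose by 0.49 log2 from near background (adjusted p = 0.0446), and this call was lost under 9 of the alternatives tried.

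**Figure D2:**
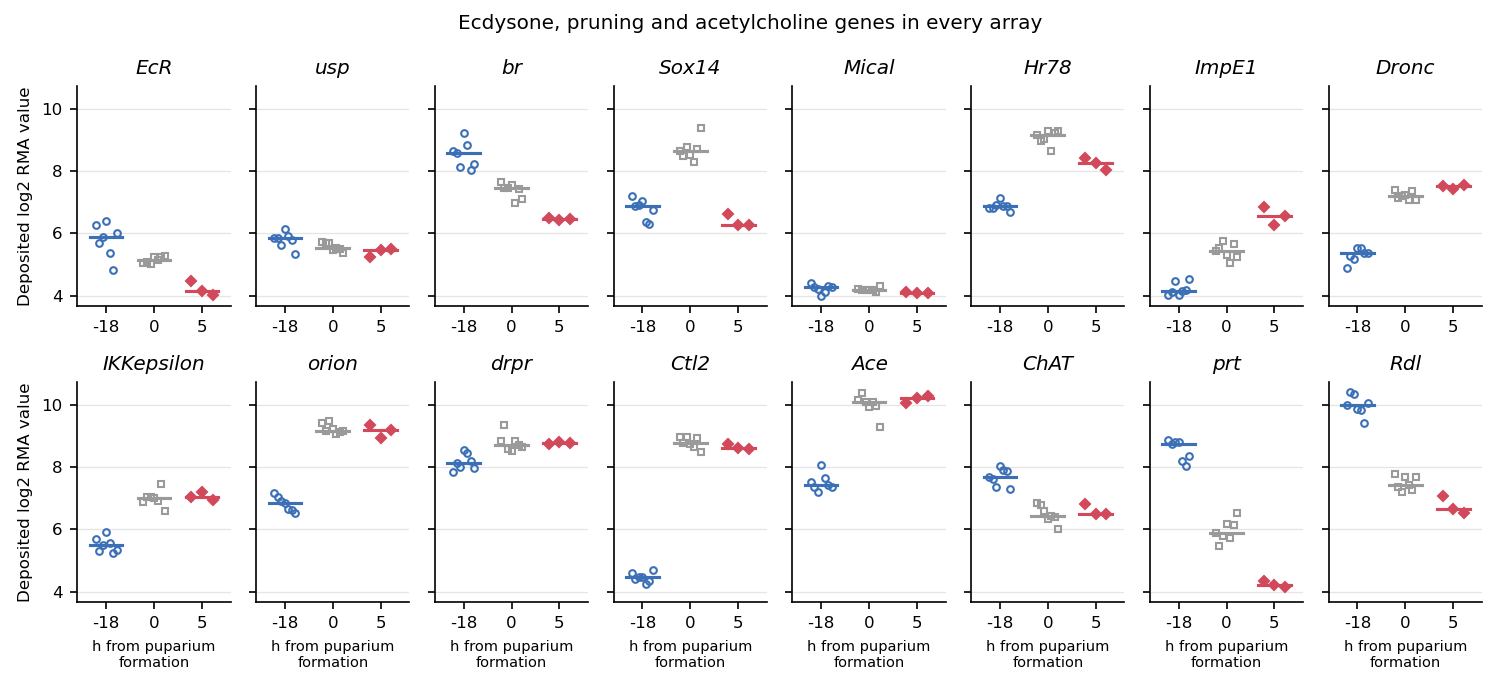
Deposited log2 RMA values (y axis) of 16 genes of ecdysone response, pruning and neurotransmission in each array at -18, 0 and 5 h (x axis), with open circles for larvae, grey squares for 0 h prepupae, filled diamonds for 5 h pupae and lines for group medians. Sox14 has a 0 h median of 8.64 and overlaps the larval range at 5 h, while prt and EcR are lower at 5 h than in any larval array.

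Genes of cholinergic transmission moved in both directions. Kenyon cells use acetylcholine, which ChAT makes. ChAT measured 7.30 to 8.05 (median 7.68) in larvae and 6.81, 6.50 and 6.49 at 5 h. It fell 2.12-fold without overlap (-1.09 ± 0.16 log2, adjusted p = 0.000202), and its second probe set fell by 1.29 log2. Ace, in contrast, went up from 7.21 to 8.07 to 10.07, 10.21 and 10.31 (2.68 ± 0.15 log2). Among receptors for acetylcholine, nAChRalpha2 rose 2.64-fold (7.26 to 7.97 against 8.93, 9.04 and 8.77) and nAChRbeta1 fell 2.22-fold (5.49 to 6.10 against 4.61, 4.73 and 4.59). Of 38 transmitter receptors 4 rose and 5 fell, with a median of -0.08. The dopamine receptor Dop1R1, which mushroom body learning needs, fell by 1.05 log2, and the serotonin receptor 5-HT2A rose 1.73-fold.

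Of 31 genes of the synaptic vesicle and active zone, 3 rose and 9 fell (median -0.21). Behind prt, Rab27 and ChAT the falls were smaller. shi, the dynamin of vesicle endocytosis, fell by 0.62, the endophilin EndoA by 0.58, the vesicle fusion regulator Rop by 0.48 and the presynaptic calcium channel cac by 0.31 log2. Syb rose by 1.02 and Dap160 by 0.47, the latter near background in both groups. The calls of fall numbered 5 without the 5 h array 2. The active zone scaffold brp differed by -0.36 ± 0.15 log2 (5.59 to 6.31 against 5.64, 5.56 and 5.46, adjusted p = 0.12) and nSyb by -0.05.

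Of 38 ion channel and excitability genes 4 rose and 11 fell. The 3 beta subunits of the sodium pump differed in direction. nrv1 rose by 3.30 and nrv2 by 0.76 log2, while nrv3 fell 3.09-fold, from 8.31 to 9.12 to 7.18, 7.20 and 6.82 (-1.63 ± 0.16 log2, adjusted p = 7.18e-06). The Shaker potassium channel Sh fell by 1.40, the calcium-activated channel slo by 0.77 and the ryanodine receptor RyR by 0.80. unc79, a subunit of the sodium leak channel complex, fell 2.58-fold and the L-type calcium channel Ca-alpha1D 2.38-fold. Irk2, an inward rectifier, rose by 1.09. CngA, a cyclic nucleotide-gated channel subunit, had probe sets that disagreed. The brighter one changed by -0.03, whereas the other read 2.77 to 3.63 in larvae and 7.86, 7.90 and 7.97 at 5 h, a rise of 4.62 log2 (adjusted p = 1.87e-10).

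Of 20 markers of mushroom body neurons 3 rose and 5 fell (median -0.15). toy rose 2.11-fold, from 7.48 to 8.42 (median 8.12) to 9.18, 9.12 and 9.15. ey did not pass the test (8.45 to 9.23 against 8.73, 8.81 and 8.69, -0.23 ± 0.16 log2), nor did dac (-0.06). The RNA-binding proteins Imp and Syp, which mark young and old temporal states of Kenyon cells, went in opposite directions. Syp rose 1.78-fold (5.08 to 5.78 against 6.43, 6.34 and 6.26), and Imp fell by 0.30 log2 (adjusted p = 0.0279), a call lost under 9 alternatives. chinmo, which acts in the same system, differed by -0.27 (adjusted p = 0.313). Without any one of the 5 h arrays, 3 markers fell in place of 5. In the list of 25 cAMP and memory genes 1 rose and 3 fell. 14-3-3zeta fell 1.99-fold and Ac78C by 0.65 log2 (not called against larval arrays 4, 5 and 6 alone, adjusted p = 0.0525), and the integrin scb rose 2.00-fold from near background.

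Most proteasome subunits were higher at 5 h. Of 27 proteasome subunits 16 rose and 2 fell (66.7% called, median 0.43), and none was near background in both groups. Prosalpha4, of the core particle, measured 6.59 to 7.44 (median 7.01) in larvae and 8.33, 8.31 and 8.12 at 5 h. It stood 2.38-fold higher without overlap (1.25 ± 0.15 log2, adjusted p = 4.96e-05). Prosalpha7 rose 2.09-fold in its brighter probe set and changed by -0.14 log2 in the other. The regulatory particle ATPase Rpt2 rose 1.95-fold and Prosbeta7 1.52-fold, while Rpn12 and Sem1 fell by 0.70 and 0.38 log2. Without larval arrays 1, 4, 6 and 7 the counts were 17 and 2, and against larval arrays 1 and 4 alone they were 6 and 1. Of 45 ubiquitin and ubiquitin ligase genes 15 rose and 3 fell (median 0.13). The polyubiquitin gene Ubi-p63E rose 2.91-fold, from 9.12 to 9.53 to 10.77, 10.88 and 10.82. CSN5, the deneddylating subunit of the COP9 signalosome, rose 2.70-fold and ari-2, a ligase of the Ariadne family, 2.06-fold. RpS27A and RpL40, whose ubiquitin is fused to a ribosomal protein, fell by 0.32 and 0.60, and Nedd8 fell by 0.75.

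Of 33 endosome and lysosome genes 19 rose and 1 fell (median 0.47), with 12 rises without the 5 h array 2. CtsB, the lysosomal protease cathepsin B, lay at 9.04 to 9.31 in larvae and at 10.82, 10.58 and 10.46 in pupae (2.73-fold, 1.45 ± 0.10 log2, adjusted p = 3.36e-07). The ESCRT genes shrb, Vps2, Vps20 and Vps24 rose by 0.94, 0.55, 1.05 and 0.79 log2 and Vps25 fell by 0.75. The lipase Lip4 rose 2.72-fold and Stam, an ESCRT cargo adaptor, 2.34-fold. Of 27 autophagy genes 9 rose and 1 fell (median 0.14), with 5 to 12 rises and 0 to 3 falls over 22 alternatives. Atg7, the E1-like enzyme of the pathway, went from near background (2.66 to 3.26) to 4.98, 4.91 and 4.93, and its E2-like partner Atg3 rose 2.65-fold (6.49 to 7.12 against 8.46, 8.09 and 8.11). Atg12, a ubiquitin-like protein of the pathway, fell by 0.77, while Atg8a and Atg10 were not called (0.20 and -0.15). In the V-ATPase, the proton pump of lysosomes and synaptic vesicles, none of the 16 measured subunits rose and 7 fell (median -0.43). Vha14-1 fell 3.85-fold, from 8.88 to 9.19 to 7.07, 7.01 and 7.20, and Vha36-1 2.62-fold.

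**Figure D3:**
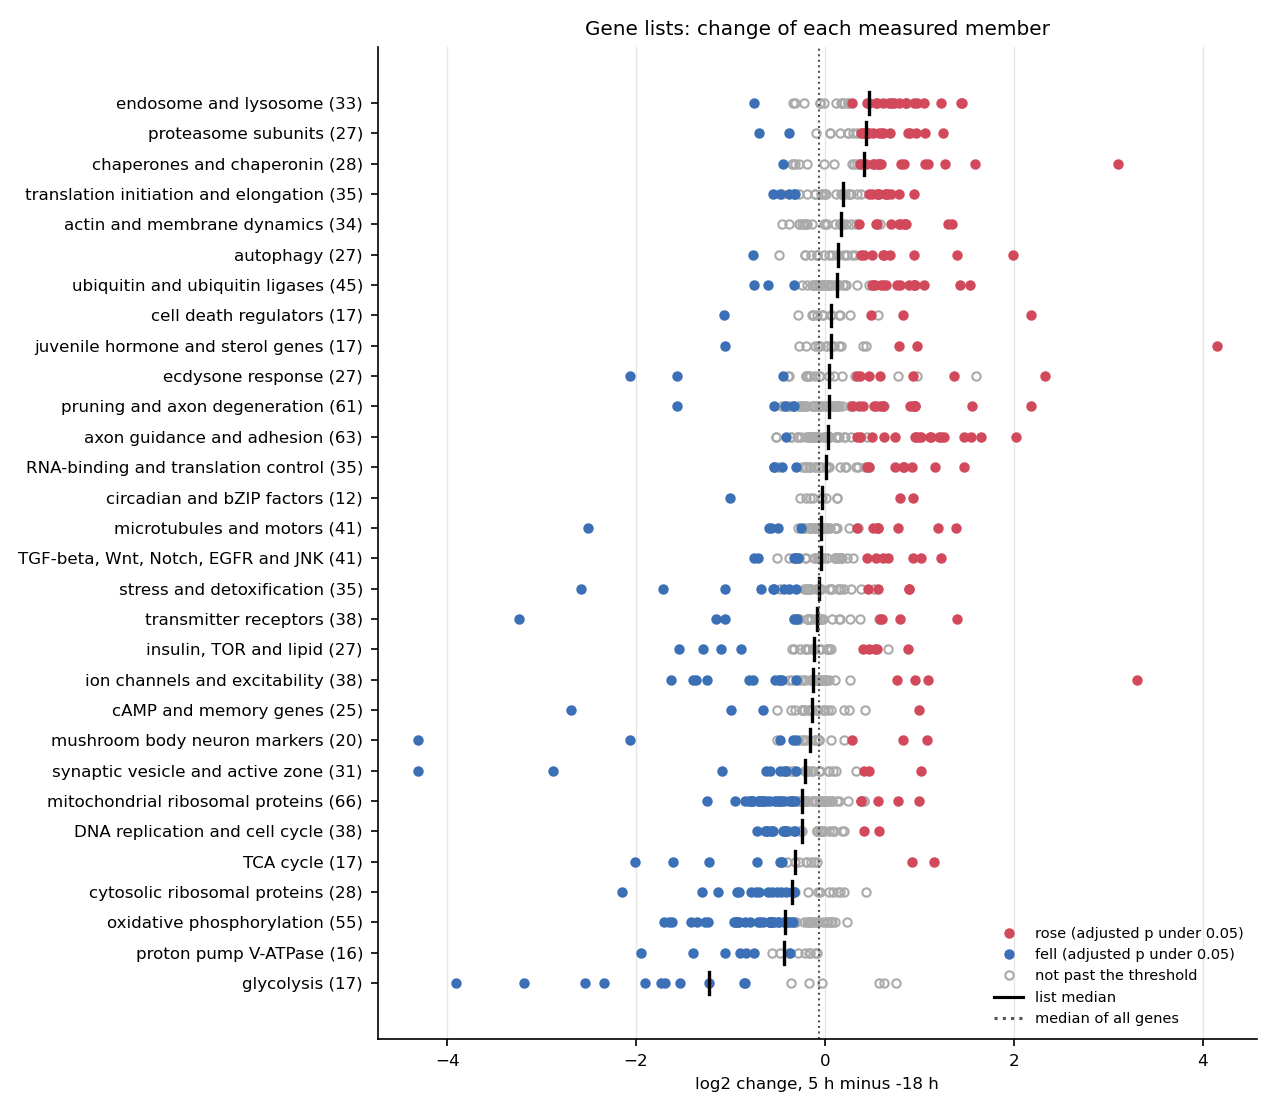
The log2 change, 5 h minus -18 h (x axis), of each measured member of 30 gene lists (y axis, number measured in parentheses), with filled points for members past an adjusted p of 0.05, open points for the others, a black bar at each list's median and a dotted line at the median of all genes, -0.06. The medians run from -1.23 for glycolysis to 0.47 for endosome and lysosome.

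Glycolysis had the lowest median of the 30 function lists, with 0 of 17 genes up, 11 down and a median of -1.23. Pglym78, a phosphoglycerate mutase, lay at 10.30 to 10.63 (median 10.42) in larvae and at 6.38, 6.57 and 6.66 at 5 h. That was 14.9-fold lower in all pupal arrays (-3.90 ± 0.09 log2, adjusted p = 2.21e-11). The aldolase Ald1 fell 9.12-fold (9.07 to 10.22 against 6.93, 6.57 and 6.64). Pgi, the phosphoglucose isomerase, fell 5.80-fold (9.76 to 10.12 against 7.33, 7.15 and 7.49). Further down, Pgk fell by 1.90, Eno by 1.70, Pfk by 1.74 and Gapdh1 by 1.53 log2. Glycogen phosphorylase Glyp and glycogen synthase Glys fell by 2.34 and 1.23. Hex-A fell by 0.85, while Hex-C, Pglym87, Pepck1, fbp, Treh and UGP did not pass. The falls numbered 9 to 12 over 22 alternatives, with 3 rises at most.

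**Figure D4:**
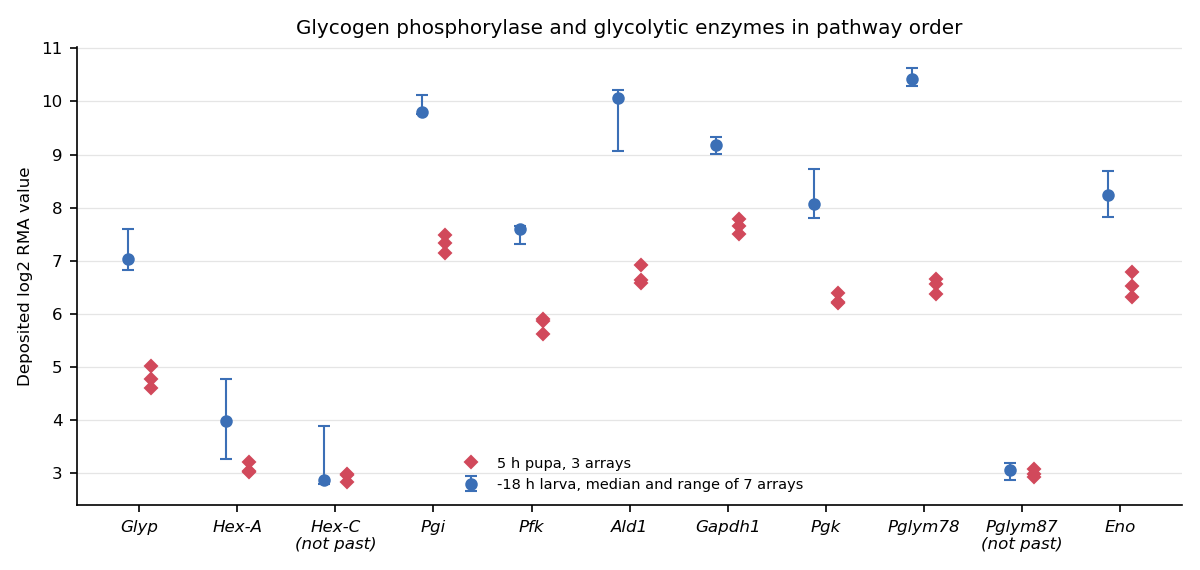
Deposited log2 RMA values (y axis) of glycogen phosphorylase and the measured enzymes of glycolysis in pathway order (x axis), as the median and range of the 7 larval arrays (circles with bars) and the 3 values at 5 h (diamonds). From Pgi to Eno the diamonds lie below the larval range except for Pglym87, which like Hex-C is dim in both groups and not past the threshold.

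In the TCA cycle list 2 of 17 genes rose and 6 fell (median -0.31). The malic enzymes Men-b and Men fell 4.03-fold and 2.34-fold, and pyruvate carboxylase PCB 3.05-fold, while the isocitrate dehydrogenase Idh rose 2.23-fold (7.76 to 8.17 against 9.31, 9.10 and 8.99). Men-b had a second, dim probe set that changed by 0.04. Of 55 oxidative phosphorylation genes 0 rose and 33 fell (median -0.43). ND-MWFE, a subunit of complex I, fell 3.26-fold, from 8.93 to 9.51 to 7.48, 7.55 and 7.47, and COX8, of cytochrome oxidase, 2.41-fold. UQCR-6.4 and ox, of the cytochrome bc complex, fell 3.15-fold and 3.07-fold.

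Of 28 cytosolic ribosomal protein genes 0 rose and 16 fell (median -0.35). RpS29 fell 4.42-fold (8.94 to 9.90 against 7.09, 7.44 and 7.35) and RpL29 2.46-fold (11.29 to 11.62 against 10.31, 10.09 and 10.25). RpL32, often used as a reference gene, fell 2.19-fold. Of 66 mitochondrial ribosomal protein genes 5 rose and 26 fell (median -0.24), with mRpL55 at -1.24 and mRpS33 at -0.85 log2. Many of these genes are short, and short genes outside the lists also tended lower. Among genes with a mean of at least 7 log2, those with an annotated span of at most 1000 bases outside the oxidative phosphorylation and ribosomal lists had a median of -0.23 (n = 120, 12 rose and 48 fell), and longer ones 0.20 (n = 857, 306 rose and 151 fell). Among longer genes within the lists 29 of 50 fell, with a median of -0.41. The part of gene length in the falls was not tested. Translation factors were mixed, with 11 of 35 up and 5 down (median 0.19), the falls dropping to 0 without the 5 h array 3. eIF5 rose 1.92-fold (8.04 to 9.05 against 9.60, 9.58 and 9.29) and eIF2beta 1.57-fold.

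Axon guidance and adhesion genes that passed were almost all higher at 5 h. Of 63 measured, 18 rose and 1 fell, though the list median was 0.03 and 16 were near background in both groups. Over 22 alternatives 12 to 20 rose and 0 to 4 fell. otk, a receptor-like protein that works with Plexin and Wnt signalling, rose by 2.02 log2. The adhesion proteins Ama (8.06 to 8.55 against 9.40, 9.56 and 9.59) and Fas1 (6.11 to 6.74 against 7.61, 7.70 and 7.77) rose 2.39-fold and 2.34-fold. beat-IIIc, of the Beaten path family of guidance proteins, rose 3.15-fold, from 4.22 to 5.05 to 6.4, 6.02 and 6.21 in its brighter probe set, and changed by -0.16 log2 in the other. Other rises were bdl (1.48), Nrx-IV (1.55), Lac (1.11), the ephrin receptor Eph (0.97) and the receptor phosphatases Ptp69D (0.74) and Ptp99A (1.02), and beat-VII fell by 0.41.

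Of 34 genes of actin and membrane dynamics 11 rose and 0 fell (median 0.17), with 7 rises without any one of the 5 h arrays. Over 22 alternatives the rises numbered 4 to 13 and the falls 0 to 3. The formin dia measured 6.50 to 6.98 in larvae and 8.20, 8.10 and 8.12 at 5 h (2.53-fold, 1.34 ± 0.11 log2, adjusted p = 2.05e-06). chic, the fly profilin, rose 1.74-fold and sn, the bundling protein fascin, 2.46-fold. ena, the Arp2/3 subunit Arpc2 and the WAVE complex gene Hem rose by 0.84, 0.84 and 0.78. Of 41 microtubule and motor genes 8 rose and 5 fell (median -0.04). spas, the severing enzyme spastin, rose 2.29-fold (5.00 to 5.97 against 6.91, 6.52 and 6.59), stai, the fly stathmin, by 1.38 log2 and alphaTub84D 1.70-fold. The kinesins ncd and Klp61F fell by 0.50 and 0.59.

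Of 28 chaperone and chaperonin genes 14 rose and 1 fell (median 0.41), with 8 to 18 rises and 1 to 3 falls over 22 alternatives. Hsp26 lay at 6.38 to 6.97 in larvae and at 9.83, 9.66 and 9.81 in pupae, and Hsp27 rose 2.13-fold (9.22 to 9.77 against 10.74, 10.57 and 10.46). Pretaporter, encoded by prtp and known both as an endoplasmic reticulum protein and as a ligand of Draper, rose 3.01-fold, from 7.19 to 8.08 to 9.14, 8.97 and 9.24. The Hsp90 co-chaperone Cdc37 rose 2.41-fold. In the chaperonin CCT1, CCT2, CCT3, CCT4, CCT5 and CCT8 rose by 0.37 to 0.81 log2 and CCT6 fell by 0.45. Of 35 stress and detoxification genes 4 rose and 9 fell. DJ-1alpha fell 3.29-fold (6.65 to 7.41 against 5.48, 5.40 and 5.26) and GstD1 by 1.05, and the falls numbered 5 without the 5 h array 1 or 3.

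In lipid and insulin pathways 5 of 27 rose and 4 fell. Acetyl-CoA synthetase AcCoAS, the fatty acid synthase FASN1 and the acetyl-CoA carboxylase ACC fell 2.93-fold, 1.85-fold and 2.15-fold, and SREBP rose by 0.46. The ACC call was lost against larval arrays 4, 5 and 6 alone (adjusted p = 0.0520) and the SREBP call against 1 and 4 alone (0.131). The other ACC probe set changed by -0.23 and was not called. Of 41 genes of TGF-beta, Wnt, Notch, EGFR and JNK signalling 7 rose and 5 fell (median -0.04). Med, the common Smad, rose 2.34-fold (5.88 to 6.50 against 7.73, 7.56 and 7.24), spi, an EGFR ligand, 2.02-fold and fng, which modifies Notch, 1.90-fold. Of 35 genes of RNA binding and translation control 8 rose and 4 fell. Dcr-2 rose 2.78-fold (5.16 to 5.65 against 6.71, 6.99 and 6.68) and brat 2.25-fold. In the circadian list of 12, cyc rose 1.74-fold and cwo fell 2.00-fold to near background, a call lost without the 5 h array 2 or with the median of its 2 probe sets. Of 17 juvenile hormone and sterol genes 3 rose and 1 fell. Besides Jhbp2, the sterol transporter Npc1a rose 1.97-fold and Jhbp1 1.72-fold, and Oatp74D, the ecdysone importer, fell by 1.05 ± 0.29 log2 (4.53 to 5.99 against 3.93, 4.44 and 4.38, adjusted p = 0.0205). The Oatp74D call was lost without the 5 h array 1 (adjusted p = 0.118) and that of Jhbp1 without array 2 (0.122) or with the spike-in set as a term (0.103).

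Of 38 DNA replication and cell cycle genes 2 rose and 15 fell (median -0.25), with 6 falls without the 5 h array 2 and 7 without array 3. PCNA fell by 0.61 ± 0.12 log2 (6.27 to 6.80 against 6.09, 5.79 and 5.77, adjusted p = 0.00191, and 0.0738 against larval arrays 1 and 4 alone), and CycE and RfC3 by 0.63 and 0.64. Of 22 neuroblast markers 1 rose and 6 fell (median -0.25). cas and D, temporal factors of neuroblasts, fell 2.03-fold and 1.72-fold, mira by 0.72 and pros by 0.52, and brat, shared with the RNA-binding list, rose.

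Markers of other cell types were present, and they differed among arrays within each group. Of 20 glial genes 5 rose and 2 fell (median -0.06), with list means of 5.04 to 5.27 in larvae and 5.23 to 5.34 at 5 h. The glial transcription factor repo spanned 6.05 to 7.20 (median 6.77) in larvae and 7.71, 7.35 and 7.53 in pupae (1.83-fold, 0.87 ± 0.20 log2, adjusted p = 0.00675), so drpr above rose beside a glial marker. The repo call was lost with the spike-in set as a term and against larval arrays 1 and 4 alone, with adjusted p up to 0.0990. The part of glia in that rise was not tested. Indy rose 3.25-fold, and nrv2, a pump subunit of glia, 1.69-fold. The 2 falls were Gs2 (-0.62 log2) and pros (-0.52). Most of the list was not called, including wrapper (-0.003), Eaat2 (0.20), alrm (-0.04), moody (0.001) and loco (-0.11). Of 21 hemocyte and basement membrane genes 3 rose and 0 fell, with list means of 3.70 to 4.25 in larvae and 3.87 to 4.0 at 5 h. The engulfment receptor crq rose 3.32-fold, Pxn 2.55-fold and SPARC 1.66-fold (not called without the 5 h array 2, adjusted p = 0.0660, or with the spike-in set as a term, 0.0974), while the hemocyte gene Hml was near background in all pupal arrays (2.87 to 2.96).

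Fat body transcripts varied within both groups, with list means of 6.42 to 7.64 in larvae and 6.69 to 7.49 at 5 h, and 2 of 10 rose and 1 fell. Fbp1, the fat body receptor of a storage protein and itself ecdysone-inducible, rose 4.24-fold (5.28 to 7.04 against 7.34, 8.93 and 7.94). Salivary gland genes were uneven among the larval arrays. Sgs7 spanned 5.62 to 13.44 (median 6.38) in larvae and 5.08 to 5.25 in pupae, and with that spread the difference did not pass (-2.90 ± 1.38 log2, adjusted p = 0.175). None of the 15 gland genes was called. In the muscle list of 18, 2 rose and 1 fell, with larval list means up to 5.87 against 4.48 to 4.71 at 5 h. Cuticle genes gave 1 rise and 1 fall of 21, and Cht5 rested partly on the 5 h array 3 (5.55, 5.45 and 7.63, and 1.42 log2 with that array against 0.71 without; adjusted p up to 0.179 under 4 alternatives). Photoreceptor genes gave 0 calls of 13 and imaginal disc genes 1 fall of 17. When larval arrays 1, 4, 6 and 7 were left out, 2794 probe sets differed.

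**Figure D5:**
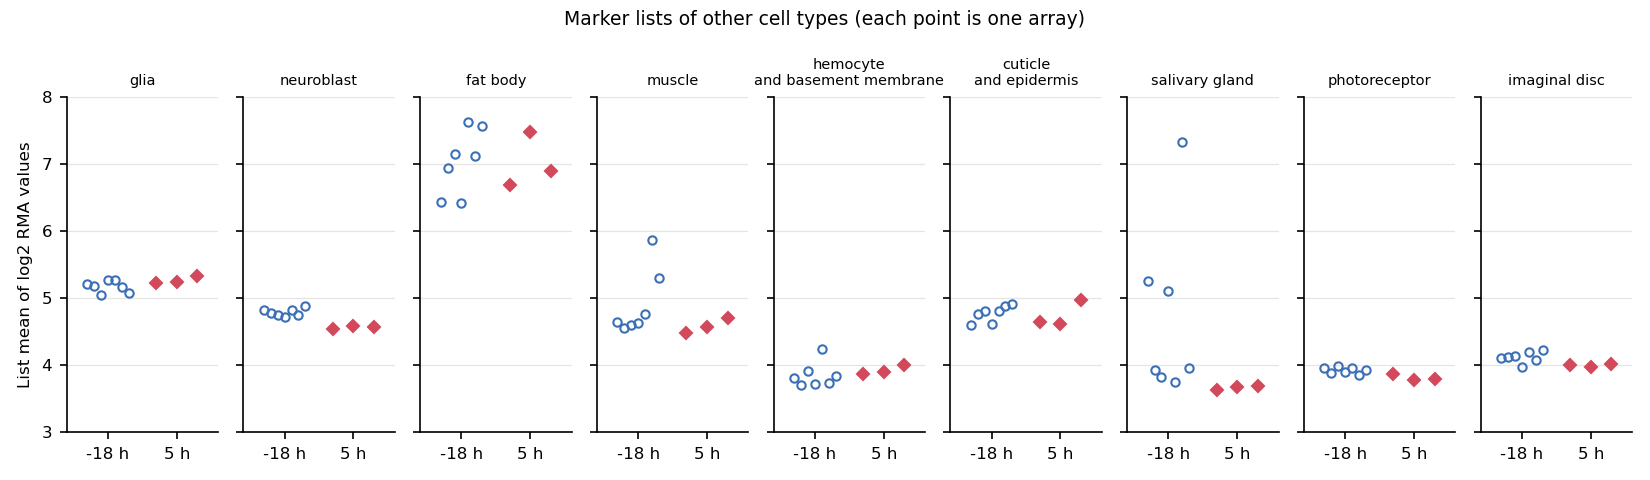
Mean log2 RMA value over the measured genes of 9 marker lists of other cell types (y axis), with open circles for the 7 larval arrays and filled diamonds for the 3 arrays of 5 h pupae. The salivary gland mean reaches 7.33 and the muscle mean 5.87 in single larval arrays, while glial means lie at 5.04 to 5.34 in both groups.

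The 5 h arrays were also set against the 7 arrays of white prepupae at 0 h, to place the named differences in time. That comparison shares its 5 h arrays with the one above, and 527 probe sets (3.77%) differed in it. Among the 18 rises named for their size, 4 were higher at 5 h than at 0 h. CG30053 had a 0 h median of 5.05 and rose by a further 2.98 log2, and CG11899, ImpE1 and Hsp26 rose by 1.14, 1.13 and 0.74. Jhbp2 and MESR6 were lower at 5 h than at 0 h, by 1.29 and 0.66 in size (-1.29 and -0.66), and the other 12 did not pass. Among the 18 falls, 9 were lower at 5 h than at 0 h, with Sol1 at -3.12, sals at -2.83, MFS3 at -2.04, rdo at -1.87 and prt at -1.73, while MtnA was higher by 0.43. Sox14 was 8.28 to 9.39 at 0 h (median 8.64), and it was lower at 5 h by 2.29 log2 in size (-2.29, adjusted p = 3.33e-07). Pglym78, Ald1 and Pgi had 0 h medians of 6.41, 6.42 and 7.28, near their 5 h values, and their differences of 0.13, 0.32 and 0.03 did not pass.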

How the data were processed

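RNA of about 22 ng per pool was amplified in 2 rounds and hybridised to Affymetrix arrays, per the labels' protocols. The deposited log2 expression summaries per probe set come from RMA, run by the authors in Affymetrix Expression Console according to the submitters' processing notes. Software versions are not stated there, nor whether the arrays were normalised as 1 set. They were used as deposited.

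Of 14010 probe sets 44 controls were left out. The platform annotation and the RefSeq gene table gave 12443 probe sets 1 symbol, 327 several and 1196 none; only the first kind were named, giving 10826 genes, 1216 of them with more than 1 probe set and represented by the brightest. A value within 0.5 log2 of a group's lower quartile (3.42 in larvae, 3.34 at 5 h) is called near background.

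A linear model was fitted per probe set to the 10 arrays with limma 3.58.1 (lmFit, eBayes) in R 4.3.3, two-sided, with Benjamini-Hochberg adjustment across the 13966 probe sets and a threshold of 0.05. SE is that of the fitted contrast. The difference between 5 h and 0 h came from a model of all 17 arrays. Code was tested on simulated data. Precision is limited by the number of arrays, which carry no read depth.

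The named genes are, among genes past the threshold without overlap, the 15 largest rises and 15 largest falls with proper symbols and 3 of each with bare annotation numbers, the 4 members of smallest p of each of 39 gene lists, and a set of ecdysone, pruning and mushroom body genes, 191 in all. The comparison and the lists were chosen with earlier results of these data known. List members named beyond this rule were chosen after their values were seen. Alternatives tried were the arrays in the fit, the variance prior, array weights, normalisation, a filter on dim probe sets, the replicate number as a block, the spike-in set, larval arrays with transcripts of other tissues, the probe set used and each array left out.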

Additional observations from a re-analysis of the deposited data

Results flagged for a closer look

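Among 44 groups of values tested for a single distant array, by Dixon's criterion for 7 values (0.568), 3 met it, and chance gives about 1 in 20. The criterion for 7 values does not apply to the 3 arrays of 5 h, so distant 5 h arrays were not tested by it. The 3 cases found were larval. For pch2 larval array 7 read 6.98 and the others 7.36 to 7.51. For Dtg larval array 1 read 6.17 and the others 4.45 to 5.07. For GILT2 larval array 3 read 5.09 and the others 3.68 to 4.02. These genes had been named among those without overlap, so the 3 arrays of 5 h lay above the distant larval value by selection. They were called under every alternative tried that kept them.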

How the results depend on the processing

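The count of 2532 probe sets rose to 3926 with array weights and fell to 1634 against larval arrays 1 and 4 alone, which held the least fat body transcript. It was 1730 to 2956 when single arrays were left out, lowest without the 5 h array 2, and 1989 to 2799 under the other alternatives that kept all probe sets, apart from the replicate block. Dropping dim probe sets left 2078 of 5071. Replicate numbers were not taken to pair the samples, since deviations of same-numbered arrays correlated at 0.139, -0.038 and -0.099, and the fit with a replicate block called 3308. Against 0 h the count of 527 was 304 to 332 without single 5 h arrays and 399 with the replicate block. There were 22 alternatives for genes, but those removed with the dim probe sets, such as Jhbp2, were tested under 21. Of 159 named genes that passed, 131 passed under every alternative that kept them and 28 were lost under at least 1. Of 32 that did not, 16 passed under at least 1. Taking the median level of a gene's probe sets in place of its brightest, the change was -0.26 for Svil, 0.031 for CAP and 2.30 for CngA. Each had the opposite sign to the brightest probe set. The Svil and CAP medians were not called (limma's adjusted p = 0.0664 and 0.893), and for CngA the brightest probe set was not. The fat body list's median turned to 0.37 against larval arrays 1 and 4 alone, and the muscle list's to 0.014 without dim probe sets and 0.016 against those 2 arrays. The causes were not tested.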

Other observations

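The genes in these paragraphs were gathered after their values were seen, and their counts are descriptions. Of 17 measured lysosomal enzymes and partners that belong to none of the lists above, 10 rose and 0 fell, with a median change of 1.11. Ids, an iduronate sulfatase, measured 4.95 to 5.73 in larvae and 7.45, 7.33 and 7.35 at 5 h (4.26-fold). The cathepsin CtsK1 rose 3.23-fold and the lysosomal chloride channel ClC-b 3.51-fold, and cer, an inhibitor of cathepsins in flies, rose 4.24-fold. CREG rested on the 5 h array 3 for much of its size (4.62, 4.59 and 7.38 against 3.0 to 3.71 in larvae).

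Of 30 neuropeptide and peptide-processing genes 1 rose and 9 fell. The peptide corazonin, Crz, spanned 5.34 to 7.82 in larvae and 4.83, 4.74 and 4.80 at 5 h (3.74-fold lower), and Dh31 fell 3.14-fold. Ms, myosuppressin, read 5.59 to 8.82 in larvae and 2.79, 3.60 and 8.24 in pupae, so 1 of the 3 pupal arrays kept a larval level and the difference did not pass (adjusted p = 0.10). Ddc, the decarboxylase of dopamine and serotonin synthesis, fell 3.11-fold, from 7.03 to 8.14 to 5.95, 5.67 and 5.80.

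ChT, a choline transporter, fell 4.44-fold (7.04 to 8.17 against 5.62, 5.48 and 5.36) while the choline transporter-like genes Ctl1 and Ctl2 rose 1.40-fold and 18.3-fold. In the dpr and DIP families of synaptic recognition proteins 2 of 27 measured members rose and 1 fell. dpr5 fell 4.90-fold (6.89 to 7.92 against 5.56, 4.99 and 5.00), dpr20 rose 3.66-fold (4.3 to 4.90 against 6.20, 6.57 and 6.48) and dpr17 1.27-fold. The other dpr17 probe set changed by -0.08 log2 and was not called. Septin1, which like anillin is known from the cytokinetic ring, rose 3.98-fold (6.70 to 7.51 against 9.08, 9.04 and 8.91) and Septin2 1.33-fold, while tum, a cytokinesis regulator, fell by 0.45 log2. The other Septin2 probe set changed by -0.23 log2 and was not called. Presenilin, Psn, the protease subunit that cuts Notch, rose 4.10-fold, and Tomosyn, which restrains vesicle fusion, fell 4.42-fold in its brightest probe set. Its 4 other probe sets changed by -0.10, -0.25, -0.48 and 0.01 log2, and 3 of these were not called.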
